A study of Mus musculus with 8 samples.

Results

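The comparison concerned where a Cas9-broken end of the mouse gene Supt16 became joined in cells carrying ataxin-7 with a short (10Q) or a long (92Q) glutamine tract. It took in the pair of libraries that the labels assign to ataxin-7 at bait site 2, 2 of the 8 libraries of the series. Both came from Neuro-2a, a mouse neuroblastoma line. Each culture received plasmids for ataxin-7 (10Q or 92Q), for spCas9 and for the site 2 sgRNA, the Cas9 plasmid PX458 also carrying a constitutive GFP. Cells were collected 48 h after transfection of 5000000 cells, and 1000000 GFP-positive cells were sorted per condition. Each library was a pool of 3 transfections, so there was 1 library a side, and every interval and test below covers counting error between those libraries and not the spread between cultures. The ataxin-7 was expressed transiently from plasmids, and although the series title names a knock-in mouse, all of its libraries came from this cell line. These are DNA junctions, which carry no marker of cell type.

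Joined DNA was read by extending a biotinylated primer beside the cut into whatever followed, the prey. A junction here is the 5′ end of an aligned prey read with its chromosome and strand, repeated lines counted once. The 10Q library gave 104 distinct junctions from 118 reads and the 92Q library 213 from 305, together 317 of the 951 in the 4 site 2 libraries. The other site 2 libraries served as the background measured in the same way. Cells with Cas9 and the site 2 sgRNA but no ataxin-7 (sgRNA only) gave 575 junctions from 1527 reads, of which 3 reads lay off the assembled chromosomes. Cells with a non-targeting sgRNA gave 59 junctions from 986 reads.

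When Cas9 cuts both strands, the ends are mostly rejoined by non-homologous end joining, often after a few bases are lost. An end that is not rejoined can be trimmed further, be turned round, or meet a broken end elsewhere, which gives deletions, inversions and translocations. Ataxin-7 is a subunit of SAGA, a chromatin-modifying complex with histone acetyltransferase and deubiquitinase activity, and an expanded glutamine tract in it causes spinocerebellar ataxia type 7. Supt16 encodes the large subunit of FACT, a chaperone that takes nucleosomes apart and puts them back as polymerases pass.

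Because the guide and the primer fix where joining starts, their sequences are shown first. The capitals in the guide mark its last 10 bases, next to the PAM, where Cas9 tolerates mismatches least.
site 2 sgRNA: ctcgcagcccTCCACCGTAA
site 2 bait primer: ggtttcccctccgctcttta
The place of either sequence on the chromosome was not determined here. The bait end was instead read from the libraries: 917 of the 986 non-targeting reads began at chromosome 14 position 52181662 (mm10) on the plus strand. That position lies inside Supt16 (chromosome 14, 52160419 to 52197239), a gene of the minus strand, so that plus-strand prey runs towards the start of Supt16 and then into Chd8. The gene table used gives gene bodies without exons or UTRs.

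Distinct junctions were more numerous with 92Q by a factor of 2.05 (95% interval 1.61 to 2.61), but so were reads, by a factor of 2.58 (2.08 to 3.22). The number of junctions was not larger once reads were made equal. Among 118 reads drawn from the 92Q library, 92.0 distinct junctions are expected, against the 104 found in 118 reads of the 10Q library, a ratio of 0.885. On average a junction was seen in 1.43 reads with 92Q and in 1.13 with 10Q. At 118 reads the 92Q figure is expected to be 1.28. Reads sequenced per library before filtering were not used here, so neither ratio is a rate of joining per cell.

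The added 92Q reads lay mainly around the cut. Within 10 kb of the bait end the 92Q library had 106 junctions and 196 reads, and the 10Q library 37 junctions and 46 reads, a ratio of junctions of 2.86 (1.95 to 4.29). On other chromosomes the ratio was 1.66 (1.18 to 2.33), from 96 and 58 junctions. At 118 reads the 92Q library is expected to give 50.5 on-cut junctions, the class that the authors' lists place near the cut, against 37 in the 10Q library, and 37.6 junctions on other chromosomes against 58. In distinct junctions the on-cut share rested on 37 of 104 in the 10Q library (35.6%) and 107 of 213 in the 92Q library (50.2%), 14.7 points apart (3.004 to 25.5). Fisher's exact test, two-sided, gave p = 0.0162, and 0.148 after Benjamini-Hochberg adjustment over the 10 share tests made here, so the difference did not pass. It was 19.3 points at equal reads (Fisher's exact test on rounded counts, adjusted p = 0.0632), but 7.01 points with positions within 5 bp merged and 2.41 points among junctions with a mapping quality of at least 30 (57.8% and 60.2%). Counted as reads the on-cut share was 38.98% and 64.6% (Fisher's exact test, adjusted p = 1.97e-05), but reads of 1 position can be PCR copies of 1 molecule.

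**Figure D1:**
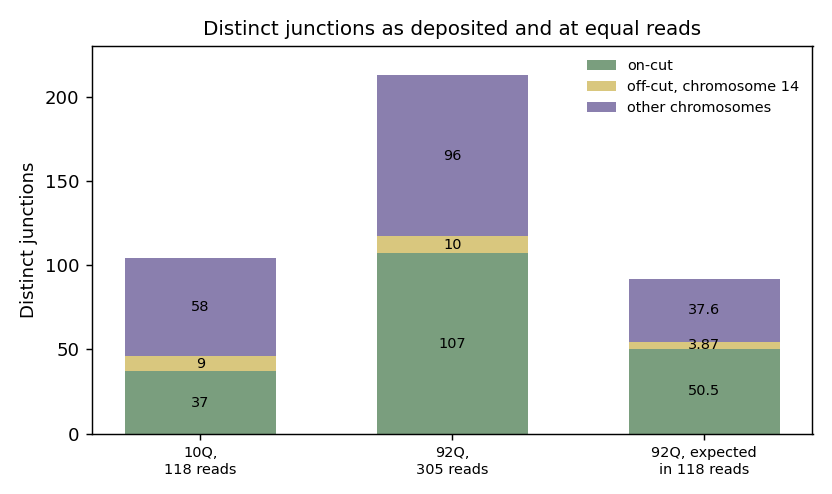
Distinct junctions (vertical axis, number) in the 10Q library, the 92Q library and, as an expected value, in 118 reads of the 92Q library, parted into on-cut junctions, off-cut junctions of chromosome 14 and junctions on other chromosomes. The 92Q bar falls from 213 to 92.0, below the 104 of the 10Q library, and within it 50.5 junctions are on-cut and 37.6 on other chromosomes.

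Next to the cut the libraries drew on overlapping sets of positions. In the 92Q library the commonest plus-strand 5′ end lay 18 bp above the bait end, with 25 of 189 plus-strand reads within 10 kb (13.2%, exact 95% interval 8.75 to 18.9). In the 10Q library it held 3 of 46 reads (6.52%, 1.37 to 17.9), behind only the bait end itself. The sgRNA-only library also had its commonest end there, with 145 of 1299 reads (11.2%, 9.50 to 13.002), while the non-targeting library had 0 of 930, which allows up to 0.323%. This limit, given here for each count of 0, is 3 counts of the total, and it lies somewhat below the upper end of the exact interval (0.396% here). The position at 18 bp thus had reads in all 3 libraries with the site 2 sgRNA and none in the library without it. It was singled out after its values were seen.

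Reads that began at the bait end, where almost all non-targeting reads begin, numbered 6 in the 10Q library (5.08% of reads, 1.89 to 10.7) and 20 in the 92Q library (6.56%, 4.05 to 9.95). The sgRNA-only library had 113 (7.40%, 6.14 to 8.83). These intervals overlap, but the difference itself was not tested. The units are reads of 1 position, which can be PCR copies of 1 molecule. Between 1 and 17 bp the 92Q library had 9 plus-strand junctions with 16 reads, and the 10Q library had 0 of 36, which allows up to 8.33%. The sgRNA-only library had 15 there, with 120 reads, and the non-targeting library 4, with 9 reads. Such ends were thus also met without a targeted cut. Of the 9 junctions with 92Q, 3 had a mapping quality of at least 30.

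Of the 37 junction positions within 10 kb in the 10Q library, 16 (43.2%) were found at the same base and strand in the 92Q library, where they made up 15.1% of 106. The sgRNA-only library held 26 of the 37 (70.3%, 53.0 to 84.1) and 69 of the 106 (65.1%, 55.2 to 74.1). Most junction positions next to the cut in either library were thus met without added ataxin-7 too. The sgRNA-only library was much deeper there, with 1327 reads at 390 positions, against 46 reads with 10Q and 196 with 92Q. Of its 390 positions, 6.67% were found with 10Q and 17.7% with 92Q. How many matches such density gives by itself was not tested. The non-targeting library shared 1 of the 37 and 4 of the 106.

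**Figure D2:**
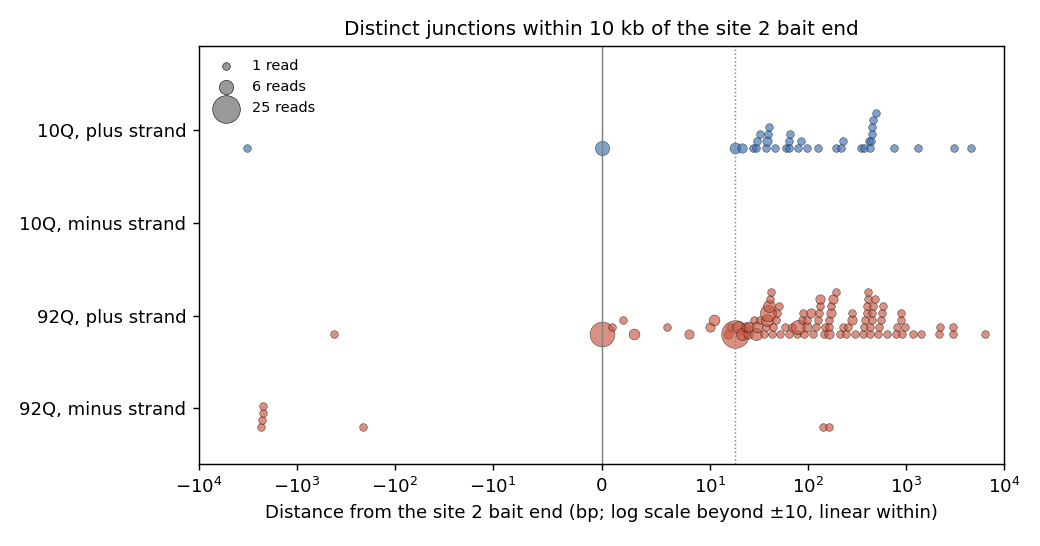
Distinct junctions within 10 kb of the bait end, by library and strand of the prey; the horizontal axis is the distance in bp (log scale beyond 10 bp), the size of a point gives its reads, and points are stacked only to keep them apart. The solid line marks the bait end and the dotted line 18 bp, where the 92Q library has 25 reads; the minus strand holds 7 junctions with 92Q and 0 with 10Q.

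Plus-strand prey at or above the bait end keeps the order and direction of the chromosome, the form a deletion leaves. Reads at the bait end itself, where almost all non-targeting reads begin, have this form too. The class made up 36 of the 37 junctions within 10 kb with 10Q and 98 of the 106 with 92Q. These counts include the bait end and, with 92Q, the 9 junctions at 1 to 17 bp. The median distance was 91 bp with 10Q (quartiles 38.8 and 433) and 132 bp with 92Q (40.3 and 420), so the quartile ranges of the libraries overlapped almost whole. The sgRNA-only median was larger, 314 bp (113 and 750). At 118 reads a library the expected medians drew together, at 91 bp for 10Q, 97 bp for 92Q and 108 bp for the sgRNA-only library. With all reads but only junctions at 18 bp or further, the medians were 97 bp (10Q), 164.5 bp (92Q) and 341 bp (sgRNA only). The cut was not placed, so distances from the bait end are not lengths of lost sequence.

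Junctions far above the bait end were few in both libraries. Of plus-strand junctions at 18 bp or further, 4 of 35 lay beyond 500 bp with 10Q and 19 of 88 with 92Q, and the farthest within 10 kb lay at 4648 and 6380 bp. Of all junctions within 10 kb, 33 of 37 (89.2%) with 10Q and 95 of 106 (89.6%) with 92Q fell within 1 kb. The difference was 0.433 points with an interval from -9.32 to 15.04 (Fisher's exact test, adjusted p = 1), which leaves room for a difference of several points either way.

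Prey in the opposite direction, the form an inversion leaves, was seen near the bait end with 92Q and not with 10Q. The 92Q library had 7 minus-strand junctions among 106 and the 10Q library 0 among 37, which allows up to 8.11% by the limit of 3 counts. The plus-strand share, 93.4% with 92Q (86.9 to 97.3) against 100% with 10Q (90.5 to 100), did not pass the test of a difference (-6.60 points, interval -13.01 to 3.39, Fisher's exact test, adjusted p = 0.381). The difference was -10.7 points with positions within 5 bp merged and -3.13 points at a mapping quality of at least 30. The sgRNA-only library, with 28 of 390 in the minus direction, had a plus-strand share of 92.8% (89.8 to 95.2). In the non-targeting library 2 of 10 were of the minus strand.

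The inverted 92Q junctions were not spread evenly. Of the 7, 4 lay below the bait end within 120 bp of each other, at -2323, -2272, -2205 and -2203 bp. Their mapping qualities were 0, 42, 42 and 24, each from 1 read. The same 120 bp held 0 junctions in the 10Q, sgRNA-only and non-targeting libraries. The remaining 3 lay at -211, 143 and 165 bp, with mapping qualities of 8, 0 and 23. All 7 fall in the body of Supt16, as must any position within 10 kb of the bait end. The group of 4 was noticed in the data and has no test. Within it, -2205 and -2203 count as 1 junction when positions within 5 bp are merged. Close minus-strand positions were also met without added ataxin-7. The sgRNA-only library had such junctions at 210, 215, 225 and 230 bp (mapping qualities 42, 42, 0 and 42). The non-targeting library had them at 227 and 230 bp, both at mapping quality 0.

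Past Supt16 the first gene in the direction of the bait is Chd8 (chromosome 14, 52198151 to 52258042), which encodes a chromatin remodeller of the chromodomain helicase family. The 92Q library had 2 junctions in it, 16807 and 46016 bp above the bait end, both on the plus strand with mapping qualities of 42 and 40. The 10Q library had 0 there and the sgRNA-only library 4. Between 10 kb and 1 Mb the 10Q library had a single junction, on the plus strand 261797 bp below the bait end, with a mapping quality of 42.

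Beyond 1 Mb on chromosome 14 each library had 8 junctions, 5 of them on the minus strand. They made up 8 of the 46 chromosome 14 junctions with 10Q and 8 of 117 with 92Q. The share within 1 Mb (82.6%, 68.6 to 92.2, and 93.2%, 87.0 to 97.0) was 10.6 points higher in the 92Q library, with an interval of 0.263 to 24.3, and did not pass Fisher's exact test (adjusted p = 0.234). It was 2.55 points at a mapping quality of at least 30 (93.1% and 95.7%) and 0 among junctions of 2 or more reads. Well-mapped ones beyond 1 Mb with 10Q lay in Lats2, a kinase of the Hippo pathway (57689662 to 57746212), and in Synpr, which encodes the synaptic vesicle protein synaptoporin (13284780 to 13615469), each 1 read at mapping quality 42. With 92Q, Fhit, a common fragile site gene 1612 kb long (9550092 to 11162061), held 1 junction at mapping quality 0. The 3 well-mapped junctions with 92Q, at 72784504, 73403587 and 96625395, had 1 read each and mapping qualities of 40, 40 and 42, and none lay in a gene body.

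Prey from other chromosomes made up 55.8% of junctions with 10Q (45.7 to 65.5) and 45.1% with 92Q (38.3 to 52.02), which differed by -10.7 points (-22.0 to 0.999, Fisher's exact test, adjusted p = 0.234). Among junctions with a mapping quality of at least 30 the difference turned to 0.556 points (35.6% and 36.1%), and with positions within 5 bp merged it was -3.47 points. The non-targeting library, in which site 2 was not targeted, held 48 junctions on other chromosomes, against 58 for 10Q, 96 for 92Q and 153 for the sgRNA-only library. In bare number the 10Q library stood close to the library without a targeted cut, but the reads differed, 118 against 986. Of those 986 reads, 917 began at the bait end. At 118 reads the non-targeting library is expected to give 6.27 junctions on other chromosomes. How many of the 10Q junctions arose without the cut was not tested. Nearly all junctions on other chromosomes were single reads: 57 of 58 with 10Q and 94 of 96 with 92Q. The exception with 10Q was a position on chromosome 8 (126733553, minus strand) with 6 reads, all at mapping quality 0. With 92Q a position on chromosome 4 (36952523, minus strand) and one on chromosome 18 (20425083, plus strand) had 2 reads each at mapping quality 0.

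Away from the bait chromosome both strands were met about equally. The plus strand held 29 of 58 such junctions with 10Q and 45 of 96 with 92Q (50.0% and 46.9%). The difference was -3.13 points (-18.9 to 12.8, Fisher's exact test, p = 0.741, added after the data were seen and not adjusted).

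Between the 10Q and 92Q libraries, the best mapping quality of a junction differed by place more than by library. It is the highest among the reads of a junction, and repeated reads lay mostly near the bait end. With 92Q, 25 of 106 junctions within 10 kb had 2 or more reads, against 2 of 96 on other chromosomes. With 10Q these were 4 of 37 and 1 of 58. How far this raised the share near the bait end was not tested. Mapping quality ran from 0 to 42, and 30 or more was taken as well mapped. Within 10 kb of the bait end 26 of 37 junctions were well mapped with 10Q (70.3%, 53.0 to 84.1) and 64 of 106 with 92Q (60.4%, 50.4 to 69.7). On other chromosomes it was 16 of 58 with 10Q (27.6%, 16.7 to 40.9) and 39 of 96 with 92Q (40.6%, 30.7 to 51.1), the latter higher by 13.04 points (-2.62 to 27.1, Fisher's exact test, p = 0.120, added after the data were seen and not adjusted). The sgRNA-only and non-targeting libraries stood at 39.9% and 58.3% there. Within 10 kb they stood at 76.2% and 20% (2 of 10), so the non-targeting library ran the other way. Over all junctions the share was 43.3% with 10Q and 50.7% with 92Q (7.43 points, -4.25 to 18.7, Fisher's exact test, adjusted p = 0.388).

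Low mapping qualities were also found at the bait end. Of the 20 reads of the 92Q library that began at the bait end itself, 4 had a mapping quality of 30 or more and 7 had 0, and in the non-targeting library 428 of 917 reads at this base reached 30 and 156 had 0. Well-mapped prey on other chromosomes was 2.44 times as frequent with 92Q (1.33 to 4.67), close to the ratio of reads, and the rest 1.36 times (0.895 to 2.07).

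**Figure D3:**
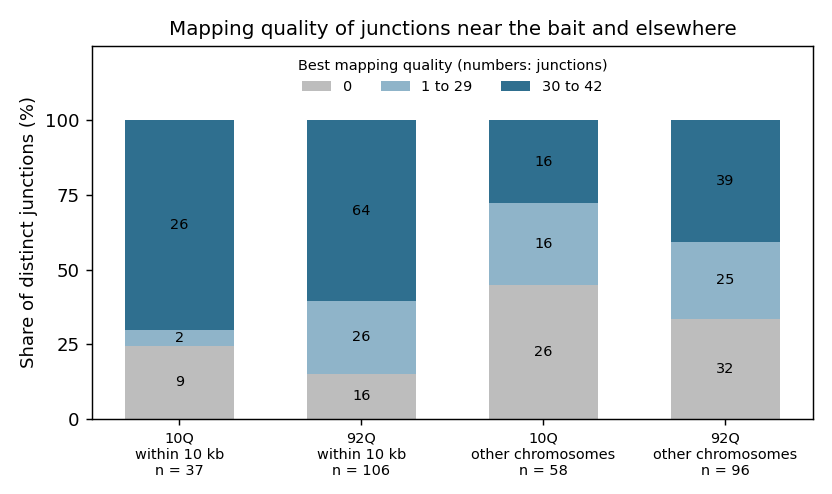
Share of distinct junctions (vertical axis, %) by best mapping quality (0, 1 to 29, 30 to 42), within 10 kb of the bait end and on other chromosomes, for both libraries; numbers in the bars are junctions. The well-mapped part is 26 of 37 and 64 of 106 near the bait end, and 16 of 58 and 39 of 96 on other chromosomes.

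Prey came from most chromosomes in both libraries. With 10Q, 17 of the 19 other chromosomes (Y left out) held a junction, chromosomes 13 and 18 having none, and with 92Q 18 of 19 did, X having none. The most junctions stood on chromosome 10 with 10Q, at 8 (exact Poisson 95% interval 3.45 to 15.8) where chromosome length predicts 3.02, and 3 of these were well mapped. With 92Q it was chromosome 11, at 10 (4.80 to 18.4) where 4.67 are predicted, 6 of them well mapped. On the same chromosomes the other library had 4 (chromosome 10, 92Q) and 3 (chromosome 11, 10Q), close to the predicted 5.00 and 2.82. The intervals also excluded the predicted number on chromosome 19 with 10Q, at 5 (1.62 to 11.7) against 1.42, and on X with 92Q, at 0 (0 to 3.69) against 6.54. On X the 10Q library had 1 junction where 3.95 are predicted, and the sgRNA-only library 3 (0.619 to 8.77) where 10.4 are predicted. The non-targeting library had 0 there (0 to 3.69) where 3.27 are predicted, so X counts were low without a targeted cut too. The prediction uses length alone and takes no account of copy number. With 19 chromosomes examined in each library and so few junctions, no chromosome was tested.

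**Figure D4:**
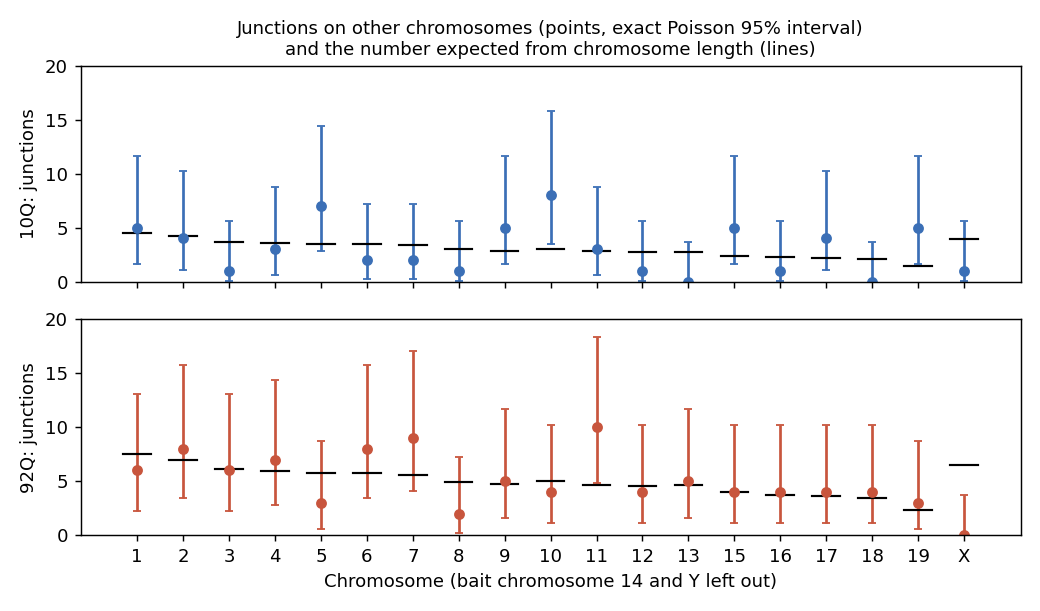
Distinct junctions on each other chromosome (points, with exact Poisson 95% intervals) in the 10Q library (top) and the 92Q library (bottom), and the number expected from chromosome length (horizontal lines). Chromosome 10 stands highest with 10Q at 8 junctions and chromosome 11 with 92Q at 10, and the intervals leave out the line on chromosomes 10 and 19 with 10Q and on chromosomes 11 and X with 92Q.

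Protein-coding gene bodies held 32 of 58 prey positions on other chromosomes with 10Q (55.2%, 41.5 to 68.3) and 48 of 96 with 92Q (50.0%, 39.6 to 60.4), which differed by -5.17 points (-20.7 to 10.9, Fisher's exact test, adjusted p = 0.773). The sgRNA-only and non-targeting libraries had 44.4% and 45.8%, inside both intervals, and gene bodies cover 37.9% of the summed chromosome lengths. Well-mapped junctions alone gave 8 of 16 with 10Q and 21 of 39 with 92Q (50.0% and 53.8%). Near the start of a protein-coding gene, within 5 kb, lay 6 of 58 with 10Q (10.3%, 3.89 to 21.2) and 11 of 92 with 92Q (12.0%, 6.12 to 20.4). The sgRNA-only and non-targeting libraries had 8% and 6.25%. Starts were known for 17492 of the 21779 protein-coding genes and for none on chromosome 18, whose junctions were left out. The difference was 1.61 points (-10.03 to 11.5, Fisher's exact test, adjusted p = 1), 12.2 points at a mapping quality of at least 30 and -2.9985 points with a 1 kb window.

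Few genes were met in either library, and almost all were different. The 10Q library had prey in 33 genes of other chromosomes and the 92Q library in 51, with never more than 1 junction in a gene. They shared 2 genes, 6.06% of the first set and 3.92% of the second. With so few genes hit, beside 21779 protein-coding genes on all chromosomes, little sharing cannot tell the libraries apart. In Cracr2a, which encodes a regulator of store-operated calcium entry (chromosome 6, 127561062 to 127674234), both libraries had a junction at the same base, 127599405, on the minus strand, with a mapping quality of 23 with 10Q and 3 with 92Q. Neither the sgRNA-only nor the non-targeting library had a junction in this gene. In Pard3b, a cell polarity gene 1004 kb long (chromosome 1, 61638667 to 62642284), the junctions lay 10174 bp apart, at 62013315 with 10Q (mapping quality 0) and 62003141 with 92Q (mapping quality 42).

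Well-mapped 10Q prey on other chromosomes fell in 8 genes, each with 1 read. They were Prdm1, which encodes the transcriptional repressor Blimp-1 (chromosome 10), Slc16a9 of the monocarboxylate transporter family (chromosome 10), Pomt2, a protein O-mannosyltransferase (chromosome 12), and Rac2, a small GTPase of blood cells (chromosome 15). The others were Apol7a of the apolipoprotein L family (chromosome 15), Arl2, a small GTPase of microtubule assembly (chromosome 19), Myh7b, a myosin heavy chain (chromosome 2), and Rpap2, a phosphatase of the RNA polymerase II tail (chromosome 5). None of the 8 had a junction in another site 2 library. Few genes of other chromosomes were hit there at all: 51 with 92Q, 67 with sgRNA only and 22 with the non-targeting sgRNA.

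With 92Q, 22 pairs of a gene and a well-mapped junction lay further than 1 Mb from the bait end, and the following stood among the 15 ranked first. They included Mapk8ip3, a JNK scaffold of axonal transport (chromosome 17), Pcdh10, a protocadherin (chromosome 3), and Sema5a, an axon guidance semaphorin (chromosome 15). Runx2, the transcription factor of bone formation (chromosome 17), Hdc, histidine decarboxylase (chromosome 2), and Pkia, an inhibitor of protein kinase A (chromosome 3), each had 1 junction, as had Scaf4, whose product binds the RNA polymerase II tail (chromosome 16), and Svil, which encodes the actin-binding protein supervillin (chromosome 18). Also among them were Aig1, Crtac1, Gpa33, Pard3b, Sergef and Slc45a1. Each gene named had a mapping quality of 42 and 1 read. None had a junction in the sgRNA-only or non-targeting library, where few genes were hit at all.

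Outside the rule for named genes, the prey positions that recurred between site 2 libraries were looked up after their values were seen. Of 96 positions of the 92Q library on other chromosomes, 3 lay within 1 kb of a sgRNA-only position (3.13%, 0.649 to 8.86), and of 58 with 10Q none did, which allows up to 5.17% by the limit of 3 counts and 6.16% by the exact interval (Fisher's exact test, adjusted p = 0.416). One of the 3 lies at the start of Pde4a, which encodes a phosphodiesterase that breaks down cyclic AMP. The 92Q read begins at chromosome 9 position 21196729, 24 bp after the annotated start, with a mapping quality of 40, and the sgRNA-only read begins 6 bp before it, at mapping quality 0.

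The reference sequence there (RefSeq, GRCm38.p6, plus strand, chr9:21196723-21196752) is shown because it is a prey site near a gene start met in 2 libraries. It begins with the first base of the sgRNA-only read, and the capitals begin with the first base of the 92Q read.
Pde4a start: ccagtaCCGCAGTGAGCGAGCGAGCGCGCA

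The other 92Q positions near a sgRNA-only junction lay outside gene bodies. On chromosome 11 (104109753, plus strand) both libraries had the same base, with mapping qualities of 42 and 0. On chromosome 18 (53764345, plus strand) the reads of both libraries had mapping qualities of 6 or less. With 10Q, a position in Igsf21, an immunoglobulin superfamily gene (chromosome 4, 140055123, plus strand, mapping quality 0), was also present in the non-targeting library at the same base with a mapping quality of 42.

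Gene lists held next to nothing, but few genes of any kind were hit. On other chromosomes these were 33 with 10Q and 51 with 92Q, beside 21779 protein-coding genes on all chromosomes. At so low a share, a count of 0 or 1 in lists of 9 to 30 genes cannot tell a list from genes in general. Of 30 double-strand break response genes, 1 had a junction with 10Q and none with 92Q: Prkdc, the catalytic subunit of DNA-dependent protein kinase, which acts in end joining (chromosome 16, 15637444 to 15842239), with 1 read at mapping quality 0. Of 30 long neural genes, none had a junction with 10Q and 1 with 92Q, the Fhit junction already described. Of 21 SAGA genes, 9 polyglutamine disease genes and 15 genes of FACT and other histone chaperones, Supt16 itself aside, none had a junction in either library. At 58 and 96 junctions on other chromosomes a count of 0 allows a share of up to 5.17% and 3.13%, so a few junctions in a list could have been missed.

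**Figure D5:**
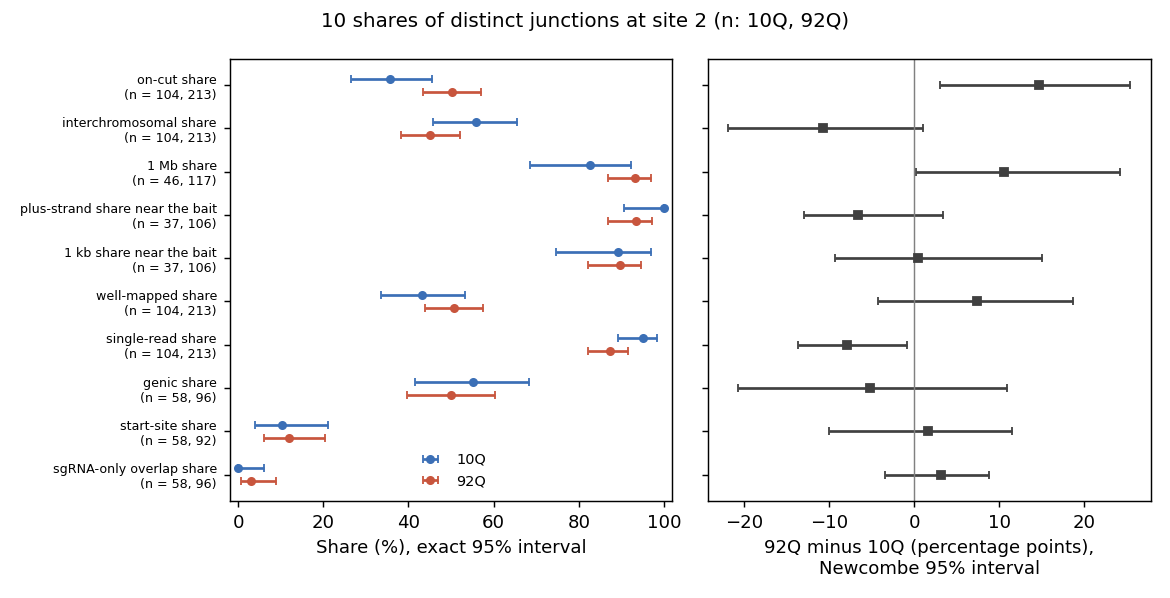
The 10 shares of distinct junctions compared between libraries (left, % with exact 95% intervals) and their differences (right, 92Q minus 10Q in percentage points, with Newcombe 95% intervals); n gives the 10Q and 92Q denominators. The intervals of the on-cut, 1 Mb and single-read differences exclude 0, and none of the 10 passed Fisher's exact test after adjustment.

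Most junctions rested on a single read, and the difference in their share did not pass after adjustment. Junctions seen in 1 read alone were 99 of 104 with 10Q (95.2%, 89.1 to 98.4) and 186 of 213 with 92Q (87.3%, 82.1 to 91.5), which differ by -7.87 points (-13.7 to -0.794, Fisher's exact test, p = 0.0295, adjusted p = 0.148). The libraries differ in reads, 305 with 92Q against 118 with 10Q, and this share was not compared at equal reads. The difference was -13.9 points at a mapping quality of at least 30 (adjusted p = 0.0524, Fisher's exact test) and -0.394 points in the off-cut list alone. Of the junctions with 2 or more reads, 25 of 27 with 92Q and 4 of 5 with 10Q lay within 10 kb of the bait end.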

How the data were processed

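The authors deposited an on-cut and an off-cut list per library, with 1 aligned read per line and a score, the mapping quality, as the only measured value. The submitters' processing notes name the aligner Bowtie2 with no version, and mm10 beside mm9 with no role; the bait end fell inside the targeted gene on mm10, which was used. How reads were filtered, deduplicated or assigned to a list is not given in the sources used.

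Junctions were counted with Python 3.11.15. Shares were compared by two-sided Fisher's exact tests (scipy 1.17.1) with Benjamini-Hochberg adjustment over 10 tests and a threshold of 0.05, with exact Clopper-Pearson, Newcombe and Poisson 95% intervals; PCR reads are not independent molecules, so these cover counting error only. Expected junctions at equal reads were computed in closed form. The steps were tested on simulated data. Gene bodies came from RefSeq (GRCm38.p6), without 340 entries in the first 3 Mb of chromosomes.

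Named were the bait gene, genes hit within 100 kb of it, genes hit in both libraries, list members hit, and per library the 15 first genes by reads, mapping quality (at least 30) and name; 1 of them is not reported here. Members and lists were chosen with earlier results of these data known. Alternatives merged positions within 5 bp, required a mapping quality of 30 or 2 reads, counted reads, dropped non-targeting positions, used the off-cut list alone, or changed windows.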

Additional observations from a re-analysis of the deposited data

How the results depend on the processing

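With 1 pooled library a side, 104 and 213 junctions and single reads at most positions, only large differences could pass a test. No paired analysis was possible because each condition is 1 pooled library. Of 75 values under alternatives, 55 kept their direction and their side of the threshold. With 2 or more reads, which left 27 and 5 junctions, 6 differences (within 1 Mb, plus strand, within 1 kb, genic, start site and overlap with the sgRNA-only library) became 0. The interchromosomal difference turned to 0.556 points with a mapping quality of 30 and to 3.999 points in the off-cut list alone. The genic difference turned to 3.85 points with a mapping quality of 30. The difference in the share within 1 kb turned to -2.47 points with positions within 5 bp merged, -3.25 with a mapping quality of 30 and -0.382 with 2 kb in place of 1 kb, and the start-site difference to -2.9985 points with a 1 kb window. Counted as reads, 4 differences passed Fisher's exact test: on-cut (25.6 points), interchromosomal (-21.3), within 1 Mb (10.7) and well mapped (17.8). The junction ratio was 5.40 with 2 or more reads, 1.58 in the off-cut list and 0.885 at equal reads, a setting added after the data were seen that by construction leaves fewer 92Q reads; for the others the cause was not tested.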
